A study of Mus musculus with 3 samples.

Results

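Podocyte genes were examined in the kidneys of 2 acetate-fed mice and 1 control mouse. The 8 genes, Nphs1, Podxl, Wt1, Synpo, Ptpro, Clic5, Magi2 and Cdkn1c, were chosen by name, and their probe sets were those that the platform annotation assigns to that single symbol. They came to 13 probe sets of 45037, for 7 of the 8 genes, because Magi2, a scaffold protein of the slit diaphragm, is not listed in the annotation used. The acetate-fed mice were C57BL/6 animals that drank 200 mM acetate, a short-chain fatty acid that bacteria of the gut release, over 6 weeks and were 3 weeks old at the start. The control mouse was of the same strain and, per the design, also entered at 3 weeks of age. Per the labels all mice were housed conventionally. The labels state neither what the control drank nor the sex of the mice. RNA came from kidney tissue, 1 single-colour Affymetrix array per mouse. The comparison asks how kidney gene expression differs with long intake of acetate, here for the podocyte.

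Podocytes are the epithelial cells that wrap the glomerular capillaries. Their interdigitating foot processes are joined by the slit diaphragm, a thin cell junction that, with the basement membrane beneath it, keeps protein out of the urine. The cells depend on a dense actin skeleton and on an apical coat of negative charge, and after development they rarely divide. They are a small share of the cells of a kidney, so an array of whole tissue reads them against a large tubular background, and fewer podocytes and less RNA per podocyte cannot be told apart in such samples.

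All values are deposited log2 expression values, on which a difference of 1 is a 2-fold change. Differences are acetate-fed minus control, given for each mouse. Errors are the SD of the 2 acetate-fed kidneys, and the control is 1 array with no error of its own. Nothing says whether the probe sets were above background. Values of different probe sets are not comparable with each other, so only differences are set side by side. The kidney label was borne out by Umod, the most abundant protein of normal urine, with values of 13.67 and 13.64 in the acetate-fed kidneys and 13.53 in the control.

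The podocyte genes differed little between acetate-fed and control kidneys. By the probe set with the highest mean, 5 of the 7 measured genes (Ptpro, Synpo, Podxl, Wt1 and Nphs1) were higher than the control in both acetate-fed mice and 0 were lower, against 26% and 30.9% of all 13473 tested genes. Those 5 were also higher in both mice after quantile normalization and after median centring, the scalings tried that could change a sign. Clic5 and Cdkn1c, at or near 0, were higher in both mice after quantile normalization and lower in both after median centring. A difference of at least 1.2-fold in both mice was seen for 2 of the 7, Ptpro and Podxl, against 6.47% of tested genes, and that count was 1 after quantile normalization, with Podxl alone, and 0 after median centring. No member was 2-fold from the control in either mouse. By limma with Benjamini-Hochberg adjustment over 27022 probe sets, 0 of the 12 member probe sets tested were called, against 10.5% of all tested probe sets, and 1 of the 12 had an unadjusted p under 0.05, against 20% of all. With exactly tied acetate-fed pairs left out of the fit, 0 of the 9 member probe sets that stayed were called by limma and 4 had an unadjusted p under 0.05, against 21.3% of all. Over the 7 genes, mouse 1 had a median difference of 0.27 and mouse 2 one of 0.08, where the median of all tested genes was 0 in each.

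**Figure D1:**
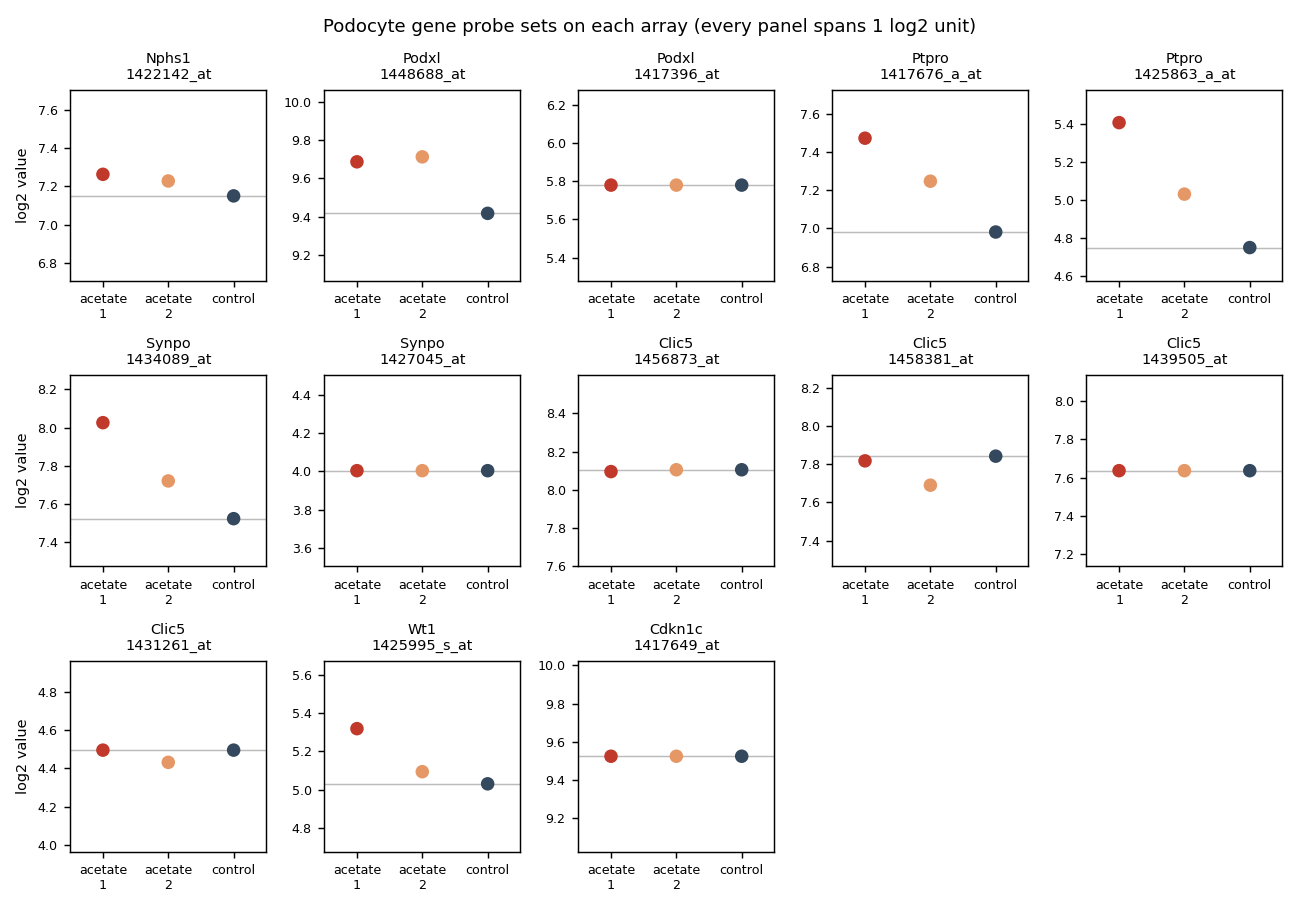
Deposited log2 value (vertical axis, 1 log2 unit per panel) of the 13 podocyte gene probe sets on the arrays of acetate-fed mouse 1, acetate-fed mouse 2 and the control (horizontal axis), with 1 point per array and a grey line at the control's value. Both Ptpro probe sets and 1 probe set each of Synpo, Podxl, Wt1 and Nphs1 lie above the control in both mice, and 4 probe sets have the same value on all 3 arrays.

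Of the 7 measured genes, Ptpro showed the widest mean difference. It encodes GLEPP1, a receptor tyrosine phosphatase of the podocyte's apical membrane. Its probe set 1417676_a_at had values of 7.47 and 7.25 in acetate-fed mice 1 and 2, against 6.98 in the control. Its other probe set, 1425863_a_at, had 5.40 and 5.03 in the acetate-fed kidneys and 4.75 in the control. On both probe sets both acetate-fed kidneys lay above the control, and mouse 1 lay above mouse 2. The mean log2 difference was 0.38 ± 0.16 (SD, n = 2), or 1.41-fold in mouse 1 and 1.203-fold in mouse 2, and limma's adjusted p was 0.58 for the first probe set and 0.70 for the second. Of all tested genes, 6.37% reached in both mice at least the smaller of the 2 Ptpro differences, 0.27 in mouse 2.

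Nphs1 encodes nephrin, the adhesion protein whose extracellular domains bridge neighbouring foot processes and whose loss causes congenital nephrotic syndrome in humans. It was read by 1 probe set, with 7.26 and 7.23 in the acetate-fed kidneys and 7.15 in the control. The acetate-fed pair lay close together and just above the control, by 0.10 ± 0.02 on the log2 scale (SD, n = 2), or 1.08-fold in mouse 1 and 1.06-fold in mouse 2. limma's adjusted p was 0.42. In both mice 17.2% of tested genes reached at least the smaller of the 2 Nphs1 differences, 0.08 in mouse 2.

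Podxl encodes podocalyxin, the sialylated protein of the apical coat, which endothelial cells also carry. The probe set 1448688_at had 9.69 and 9.71 in the acetate-fed kidneys and 9.42 in the control. Here the 2 acetate-fed mice were closer to each other than to the control, with a mean difference of 0.28 ± 0.02 on the log2 scale (SD, n = 2). This was the probe set with the unadjusted p of 0.019, and limma's adjusted p was 0.13. The second Podxl probe set, 1417396_at, read 5.78 on all 3 arrays, so the gene's probe sets disagree. Averaged over both, the mean difference was 0.14.

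On the actin side of the foot process, Synpo encodes synaptopodin, an actin-binding protein that holds together the stress fibres of the foot process and is also found in dendritic spines. Its probe set 1434089_at had 8.03 in acetate-fed mouse 1 and 7.72 in acetate-fed mouse 2, against 7.52 in the control. Both acetate-fed kidneys were above the control, by 1.42-fold in mouse 1 and 1.15-fold in mouse 2, and their own spread was large (mean log2 difference 0.35 ± 0.22, SD, n = 2). limma's adjusted p was 0.73. The other Synpo probe set, at 4.004 on all 3 arrays, fell under the filter on mean value and was not tested.

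Clic5 belongs to the chloride intracellular channel family, and its protein links the membrane to ezrin and actin in podocytes, glomerular endothelium and the stereocilia of the inner ear. Its 4 probe sets were flat or slightly lower. The one with the highest mean had 8.10 and 8.10 in the acetate-fed kidneys and 8.10 in the control. A second, 1458381_at, had 7.82 and 7.69 in the acetate-fed kidneys and 7.84 in the control, so that both acetate-fed kidneys were below the control there, with differences of -0.02 and -0.15. Another read 7.64 on all arrays, and the last had 4.50 and 4.43 in the acetate-fed kidneys and 4.50 in the control. Adjusted p-values by limma were between 0.87 and 1 over these probe sets.

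Of the regulators, Wt1 encodes the zinc finger transcription factor on which podocyte identity depends, and in the adult kidney it is also found in parietal epithelial cells. Its probe set had 5.32 and 5.09 in the acetate-fed kidneys and 5.03 in the control. Mouse 1 stood apart and mouse 2 lay near the control, with a mean difference of 0.18 ± 0.16 on the log2 scale (SD, n = 2) and limma's adjusted p of 0.87. Cdkn1c encodes p57, the cyclin-dependent kinase inhibitor that marks podocytes that have left the cell cycle. Its deposited value was 9.52 on all 3 arrays.

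In all, 4 of the 13 member probe sets had exactly the same value on all 3 arrays, 3 of them among the 12 tested, against 20.5% of tested probe sets. How such ties came about is not known. The flat reading of Cdkn1c is therefore a reading of the deposited table, with no error to set beside it. Ties also shape the limma test, because an acetate-fed pair with exactly equal values has a spread of 0. Of the 2846 probe sets called in the whole table, 92.3% had tied acetate-fed values, against 33.7% of those tested. Every tied member pair also equalled the control, so no member could be called on a tied pair. The 10.5% called over all probe sets is therefore a weak yardstick for the 0 of 12 members. With tied pairs left out, the lowest adjusted p of a member by limma was 0.089, for the Ptpro probe set 1425863_a_at. After quantile normalization, after median centring and in the upper 40% of probe sets limma called 0 probe sets in the whole table, so each call named below is lost in those 3 settings.

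**Figure D2:**
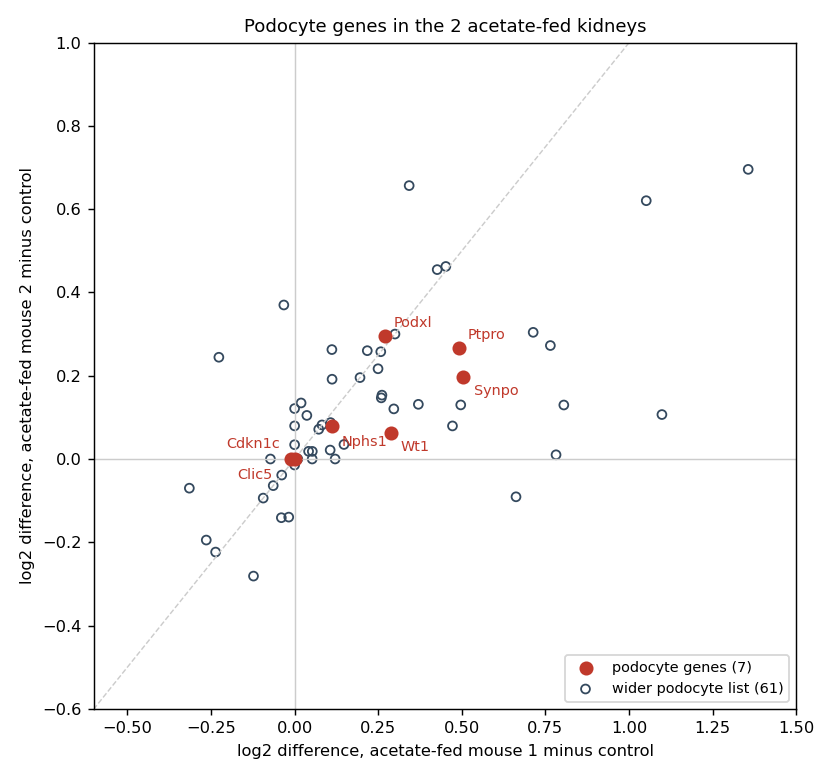
Log2 difference from the control in acetate-fed mouse 1 (horizontal axis) and acetate-fed mouse 2 (vertical axis) for the 7 podocyte genes (filled) and 61 tested genes of a wider podocyte list (open), each by its probe set with the highest mean. The dashed line marks equal differences. Ptpro, Synpo and Wt1 lie to the right of it, Nphs1 just to the right, Podxl on it, and Clic5 and Cdkn1c at the origin. Both axes share the control array.

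Upstream sequences from RefSeq (GRCm38.p6) were at hand for 3 of the measured members, Ptpro, Nphs1 and Clic5, and all 3 are shown, to set the letters upstream of these genes beside their values above. Each is the 250 bases before the annotated start, plus strand, 5′ to 3′, with CpG dinucleotides in capitals. The Ptpro window is chr6:137252049-137252298, the Nphs1 window chr7:30459808-30460057 and the Clic5 window chr17:44188322-44188571.
Ptpro: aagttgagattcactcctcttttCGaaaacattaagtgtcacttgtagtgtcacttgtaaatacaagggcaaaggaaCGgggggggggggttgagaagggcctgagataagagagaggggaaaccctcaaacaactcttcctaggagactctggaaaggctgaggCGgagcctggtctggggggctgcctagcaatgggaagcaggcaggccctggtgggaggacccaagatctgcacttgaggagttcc
Nphs1: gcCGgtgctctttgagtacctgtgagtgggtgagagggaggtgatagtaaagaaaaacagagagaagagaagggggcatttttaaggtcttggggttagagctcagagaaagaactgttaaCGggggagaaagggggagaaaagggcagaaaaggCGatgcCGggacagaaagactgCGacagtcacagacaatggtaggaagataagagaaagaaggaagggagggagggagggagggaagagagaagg
Clic5: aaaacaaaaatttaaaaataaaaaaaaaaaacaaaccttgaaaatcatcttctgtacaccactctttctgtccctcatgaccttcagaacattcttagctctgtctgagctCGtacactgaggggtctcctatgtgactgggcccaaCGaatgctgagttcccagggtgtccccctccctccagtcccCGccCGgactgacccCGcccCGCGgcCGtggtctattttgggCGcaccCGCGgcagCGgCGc
The Ptpro window holds 3 CpG dinucleotides, that of Nphs1 5 and that of Clic5 13, against a median of 6 over 32851 RefSeq windows of the same length. A search of both strands for GCGNGGGNG, the letters bound by zinc finger proteins of the EGR and Wt1 kind, found no match in any of the 3 windows, and 10.5% of all windows held a match. Of 2 RefSeq windows of Magi2, which has no value here, 1 held a match. These are descriptions of the letters in the windows, and the arrays do not measure binding.

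Other podocyte genes were read from 4 lists covering the slit diaphragm and membrane, actin and adhesion, transcription factors, and secreted and basement membrane proteins. Of their 72 genes, 61 were tested. In both mice 32 of the 61 were higher than the control and 9 lower, against 26% and 30.9% of all tested genes. The counts of each list below are to be read beside these same shares. The split was 37 and 17 after quantile normalization and 30 and 21 after median centring. The shares of all genes under those 2 scalings were not computed. Mouse 1 had a median difference of 0.05 over the list, and mouse 2 one of 0.07. At least 1.2-fold in both mice, 8 were higher and 0 lower, against 6.47% and 6.87% of all tested genes. limma called 4 of the 61 as higher and 2 as lower, against 3.97% and 4.92% of tested genes.

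Of 16 tested genes of the slit diaphragm and membrane, both mice were above the control for 9 and below it for 2. Cd2ap, the adaptor that ties nephrin to actin, had 8.96 and 8.85 in the acetate-fed kidneys and 8.70 in the control (adjusted p = 0.56 by limma). Fyn, a kinase that phosphorylates nephrin, rose by 0.26 on the log2 scale, with 7.57 in both acetate-fed kidneys and 7.32 in the control (limma, adjusted p = 0.014). Its other probe set, with a difference of 0.23 in both mice, was also called as higher. Both calls rest on tied pairs. Kirrel, the nephrin relative NEPH1, had 6.58 in mouse 1 and 5.81 in mouse 2, against 5.80 in the control, so that mouse 1 stood apart and mouse 2 lay at the control's value. Fat1, a giant protocadherin of the slit diaphragm and of tubular epithelium, had the widest difference of its list, 2.07-fold in mouse 1 and 1.54-fold in mouse 2 (adjusted p = 0.53 by limma). Tjp1, the tight junction protein ZO-1, was 1.41-fold above the control in mouse 1 and 1.09-fold in mouse 2. Trpc6, a calcium channel of the foot process, fell under the filter on mean value.

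Of 19 tested actin and adhesion genes, both mice were above the control for 13 and below it for 1, and 2 had no difference. The lower one was Slc9a3r1, the scaffold NHERF1, with differences of -0.26 and -0.19, which was named after its values were seen. The list's median was 0.07 for mouse 1 and 0.03 for mouse 2. Actn4, the crosslinker alpha-actinin-4 whose mutations cause human glomerulosclerosis, had 11.68 and 11.58 in the acetate-fed kidneys and 11.42 in the control (adjusted p = 0.53 by limma). Vcl, vinculin, was 1.70-fold above the control in mouse 1 and 1.21-fold in mouse 2. Utrn, utrophin, was 1.34-fold and 1.37-fold above it, with the pair close together (adjusted p = 0.089 by limma). Over the 3 Utrn probe sets the difference ranged from 0 to 0.43 in mouse 1 and from 0 to 0.45 in mouse 2. Itgb1, the integrin beta chain that anchors podocytes to laminin, was 1.39-fold above the control in mouse 1 and 1.06-fold in mouse 2. Over the 6 Itgb1 probe sets the difference ranged from -0.13 to 0.63 in mouse 1 and from -0.08 to 0.29 in mouse 2. Nes, nestin, an intermediate filament of mature podocytes, was counted in the slit diaphragm and membrane list and not here. It had 7.93 and 7.75 in the acetate-fed kidneys and 7.63 in the control.

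Of 12 tested transcription factors of the podocyte, 2 were higher in both mice, 4 lower and 3 without any difference, against 26%, 30.9% and 17.9% of all tested genes. Klf15, a Krüppel-like factor that responds to glucocorticoids and supports podocyte differentiation, rose 1.37-fold and 1.38-fold, with 10.18 and 10.19 in the acetate-fed kidneys and 9.73 in the control (limma, adjusted p = 0.035), a call on an untied pair that is lost in the 3 settings given above. Foxc2 rose (log2 difference 0.20) and Foxd1 and Hoxc8 fell (log2 differences -0.09 and -0.06) by limma, all 3 on tied pairs. Nfia was lower in both mice, with differences of -0.24 and -0.22. Tcf21, a helix-loop-helix factor of podocytes and stromal cells, was above the control in mouse 1 (difference 0.66) and below it in mouse 2 (difference -0.09). Lmx1b, whose human mutations cause nail-patella syndrome, had the same value, 4.40, on all 3 arrays by its probe set with the highest mean. Its other probe set had differences of -0.22 and -0.03.

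Of 14 tested secreted and basement membrane genes, both mice were above the control for 8 and below it for 2. Vegfa, which podocytes make for the glomerular endothelium, had 8.37 and 8.52 in the acetate-fed kidneys and 8.26 in the control. The glomerular collagen chains were not alike. Col4a5 rose, with 7.38 in both acetate-fed kidneys and 7.08 in the control (limma, adjusted p = 0.012, a tied pair), whereas Col4a3 had differences of -0.12 and -0.28 and did not pass. Sparc (2.56-fold and 1.62-fold) and Agrn (1.64-fold and 1.23-fold), matrix proteins made by many cells, and Sulf1, a heparan sulfatase (2.14-fold and 1.08-fold), had the widest differences and did not pass either. Other probe sets of these genes did not show the rise. Over all probe sets the lowest difference of Sparc was -0.01 in mouse 1 and 0 in mouse 2. For Agrn it was -0.05 in both mice and for Sulf1 0 in both. By Euclidean distance of the pair of differences, over 159 list genes and 3 arrays, the genes nearest to the podocyte genes' median were Prom1 (prominin-1), Nes and Clic1.

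Among relatives of the members, Cdkn1a, the gene of p21, rose while its family member Cdkn1c read the same on all arrays. Cdkn1a had 9.59 and 9.64 in the acetate-fed kidneys and 8.17 in the control (limma, adjusted p = 0.044, lost in the same 3 settings). Cdkn1b, the gene of p27, had differences of 0.14 and 0.18, and Cdkn2b rose 1.35-fold on a tied pair (limma, adjusted p = 0.0094). Cd34, the sialomucin related to podocalyxin and found on endothelium, rose 1.605-fold and 1.58-fold, with 8.19 and 8.17 in the acetate-fed kidneys and 7.51 in the control (limma, adjusted p = 0.045, likewise lost). Podxl2 had differences of 0.21 and 0.05. Clic1 had differences of 0.25 and 0.13 and Clic3 of -0.53 and -0.17, while Clic4, at 0.06 and -0.02, had no common direction. Magi1 and Magi3, relatives of the unlisted Magi2, had differences of 0 in mouse 1 and of 0.09 and -0.03 in mouse 2.

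Of 10 tested genes linked to podocyte injury, 4 were higher than the control in both mice and 1 was lower. Mouse 1 had a median of 0.30 over the list, and mouse 2 one of -0.05. The lower one was Ctsl, with differences of -0.11 and -0.13. Des, Cldn1 and Snai2 were above the control in mouse 1 and below it in mouse 2. Cd44, a hyaluronan receptor of activated parietal cells and many leukocytes, was 6.82-fold above the control in mouse 1 and 1.81-fold in mouse 2. The control value there was 4.35, near the filter's limit of 4.21. Over the 4 Cd44 probe sets the difference ranged from 0 to 2.77 in mouse 1 and from 0.02 to 0.86 in mouse 2. Vim, vimentin, was 2.44-fold and 1.501-fold above the control, and Tgfb1 1.71-fold and 1.13-fold. None of these passed limma's test, and Plaur, the urokinase receptor, rose 1.17-fold on a tied pair (limma, adjusted p = 0.013).

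Markers of other cell types that share members with the podocyte were read beside them. All 11 macrophage markers were at least 1.2-fold above the control in both mice, and 7 at least 2-fold (0.408% of tested genes), and the median marker lay 1.91 above it in mouse 1 and 1.01 in mouse 2. Lyz2, Ctss and C1qc were the widest. A shorter form of Ptpro is known from macrophages and osteoclasts. The macrophage markers were higher in mouse 1 than in mouse 2, as were 4 of the 7 podocyte genes, Ptpro, Synpo, Wt1 and Nphs1. Podxl and Clic5 were higher in mouse 2, and Cdkn1c was the same in both. The share of all tested genes that were higher in mouse 1 than in mouse 2 was not computed, so the count of 4 has no yardstick. The part of macrophages in the Ptpro difference was not tested. Parietal epithelial markers were higher in both mice in 8 of 9 genes. The list's median stood at 0.55 for mouse 1 and at 0.42 for mouse 2. Krt18 rose 1.69-fold and 1.68-fold (limma, adjusted p = 0.018, lost in the 3 settings), Akap12 was 2.79-fold and 1.99-fold above the control and Scin 1.76-fold and 1.68-fold. Their part in the Wt1 difference was not tested.

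Podxl and Clic5 are shared with glomerular endothelium. Of 14 tested genes listed for it, not all of them particular to the glomerulus, 11 were higher in both mice and 2 lower. The list's median was 0.14 in mouse 1 and 0.18 in mouse 2. Kdr had differences of 0.02 and 0.03, and Ehd3 of -0.04 and 0.21. Plvap rose 1.26-fold and 1.27-fold (limma, adjusted p = 0.043, lost in the 3 settings), Nostrin rose 1.06-fold on a tied pair (limma, adjusted p = 0.020), and Cdh5 (1.69-fold and 1.47-fold) and Pecam1 (1.69-fold and 1.40-fold) did not pass. Lpl, lipoprotein lipase, which adipocytes also make, had the widest difference of the list and was lower in both mice, by 2.36-fold and 2.86-fold. The other lower gene was Pi16, by 1.35-fold and 1.40-fold, and neither passed limma's test. The part of endothelium in the Podxl difference was not tested. Of 10 tested mesangial and juxtaglomerular markers, 6 were higher than the control in both mice and 2 lower. Their medians were 0.54 for mouse 1 and 0.25 for mouse 2. Thy1, Pdgfrb and Mcam were the widest, and the lower ones were Cspg4 (differences of -0.19 and -0.49) and Agtr1a (-0.13 and -0.40). By limma 0 of the 10 were called. Of 5 tested mesothelial markers, which bear on Wt1, 1 was higher in both mice, Krt19, and 1 lower, Upk3b.

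Podocytes lie in the cortex, so tubular markers of cortex and medulla were read as well. Both mice were below the control for 9 of 12 genes of the proximal tubule and above it for 2, with a list median of -0.26 for mouse 1 and -0.40 for mouse 2. Slc13a3 and Slc22a6 were lower by more than 2-fold in both, as were 0.46% of tested genes, and Slc7a13 was higher by more than 2-fold in both. The other Slc7a13 probe set had no difference. Over the 4 Slc13a3 probe sets the difference ranged from -1.11 to 0 in mouse 1 and from -1.66 to -0.09 in mouse 2. Loop and distal tubule genes had a list median of 0.15 for mouse 1 and 0.48 for mouse 2, with Slc12a1 and Trpm6 above the control and Pvalb below it. For collecting duct genes the median was -0.10 in mouse 1 and 0.46 in mouse 2, with Aqp2, Aqp3 and Slc4a1 above the control in both. None of these tubular genes passed limma's test by its probe set with the highest mean. The part of the tissue piece in the podocyte differences was not tested.

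**Figure D3:**
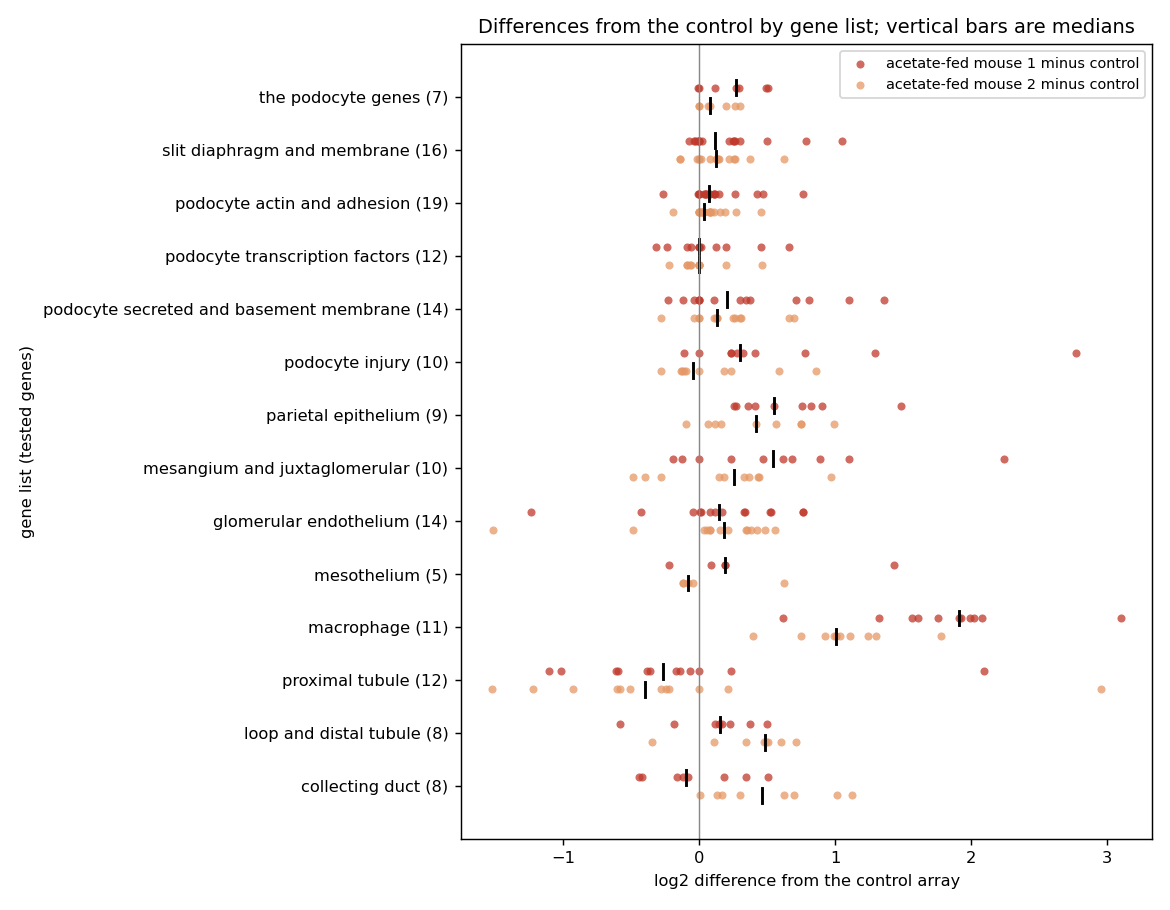
Log2 difference from the control (horizontal axis) of each tested gene in acetate-fed mouse 1 and acetate-fed mouse 2, by gene list (vertical axis, number of tested genes in brackets), with black bars at the medians. The podocyte genes, with medians of 0.27 and 0.08, lie near 0 beside the macrophage markers, with medians of 1.91 and 1.01.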

How the data were processed

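Kidney RNA from 3 mice was measured on Affymetrix arrays. The table deposited by the authors holds log2 values for 45101 probe sets, with medians of 4.94 and 4.93 on the acetate-fed arrays and 4.91 on the control. Per the submitters' processing notes MAS5 was used; how the values were summarised, normalized and filtered was not stated in any source used here. Of the deposited probe sets, 30.0% have the same value on all arrays.

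Without Affymetrix's own controls 45037 probe sets remained, of which 34945 carried 1 gene symbol, 932 several and 9160 none, and 34741 matched the RefSeq table by Entrez identifier, with 0 symbols changed. The upper 60% by mean (at least 4.21) were tested with limma 3.58.1 in R 4.3.3 (lmFit, eBayes with intensity trend, two-sided, Benjamini-Hochberg threshold 0.05). The fit has 1 residual degree of freedom, from the acetate-fed pair, and assumes that the lone control varies like it. The scripts were tested on simulated data. The p-values of the fit measure the spread between the acetate-fed mice only. Each gene is represented by its probe set with the highest mean.

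The members, the 18 gene lists and the thresholds were chosen with earlier results of these data known. Named were all member probe sets, per list up to 3 genes with the widest common difference and those past the test, and a fixed set of podocyte genes and member relatives. Some further list genes without a common rise were named after their values were seen. Alternatives were quantile normalization, median centring, other filters, no trend, tied pairs left out, 16 added on the linear scale, all probe sets of a gene, and each acetate-fed array left out. The number of arrays limits the precision. Figures were drawn with matplotlib 3.10.9 in Python 3.11.15.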

Additional observations from a re-analysis of the deposited data

How the results depend on the processing

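No member probe set was called by limma under any of the 7 other normalizations, filters or models. The whole-table counts moved: 1400 higher and 1446 lower became 0 and 0 after quantile normalization (4289 at an unadjusted p under 0.05), after median centring (4959) and in the upper 40% of probe sets (3513), 3140 and 3383 with no filter, and 1174 and 890 with tied acetate-fed pairs left out. Quantile normalization and centring break exact ties by construction; for the upper 40% the cause was not tested. A difference of 1.2-fold or more was found at 1884 probe sets higher and 1583 lower in both mice, and at 2577 to 2994 higher and 2163 to 2757 lower with 1 mouse left out, where 1 mouse has to pass and not 2. The mean differences of Nphs1, Podxl, Wt1, Synpo and Ptpro kept their sign after quantile normalization and median centring. Over both probe sets that of Ptpro was 0.42 and that of Podxl 0.14. Adding 16 or leaving out 1 mouse could not change these signs, because both mice lay above the control. Averaging could not either, except for Ptpro, because Nphs1 and Wt1 have 1 probe set each and the second of Podxl and of Synpo was flat. Clic5, at -0.0048, was 0.018 after quantile normalization and -0.031 over all its probe sets. The median over the 7 genes was 0.18, and 0.15 after quantile normalization, 0.12 with 16 added on the linear scale, 0.14 over all probe sets and 0.078 to 0.270 with 1 mouse left out. Members at least 1.2-fold higher in both mice numbered 2, then 1 after quantile normalization, 0 after median centring and 1 with 16 added, since Ptpro and Podxl lie at that limit. No paired analysis was possible because the control is 1 array with no replicate number, and leaving out an acetate-fed array leaves no residual degree of freedom, so those are values with no test.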
